A study of Mus musculus with 12 samples.

Results

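The genes described here are 6 noncoding RNA genes, AC141429.2, AC138768.1, Gm15389, Gm27216, Gm12589 and Gm20110, together with the copies of transposable elements (TEs) at their loci. The genes were picked for higher values in Morc1 knockout (KO) than in heterozygous (het) gonocytes, and they are 6 of the 35666 genes in the gene table. The TE copies were picked by position alone among the listed ones. They are the 102 of 298593 listed copies that overlap one of the 6 genes or lie within 50 kb of it. Every listed copy had at least 10 reads over the 6 libraries, so some were listed through KO reads alone. Because the KO to het difference chose the genes, it is given below as a description and without a test. The copies and the other genes named below come from limma fits over all copies or all genes of the same libraries. Their calls are likewise given as a description, since these libraries also chose the 6 genes.

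RNA was sequenced from gonocytes, the male germ cells of the newborn testis, at postnatal day 0 (P0). The het group was Morc1 (+/-) and the KO group Morc1 (-/-), with 3 libraries each, and the cells of both groups came from Mvh-Venus transgenic mice, whose fluorescent reporter follows the germ cell gene Mvh (Ddx4). Samples from postnatal day 3 are listed for the series and were not analysed here. The type of the Morc1 allele is not given in the sources used here. The labels number the libraries of a group but do not say whether they came from separate animals or pools, so any spread or p-value measures the spread between these samples, which may be technical.

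Long intergenic noncoding RNAs (lincRNAs) are spliced transcripts without a known protein product that lie between protein-coding genes. A processed pseudogene is a copy of a messenger RNA that was written back into the genome. The long terminal repeats (LTRs) of endogenous retroviruses carry their own promoters and polyadenylation signals, so that exons of many lincRNAs start or end in a TE. MORC1 is a germ cell ATPase known for its part in the silencing of TEs in the male germ line.

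The libraries held 28363683 to 32816861 reads in genes and 1974504 to 3703419 reads in TE copies. Morc1 itself was lower in every KO library (1343 to 1794 normalized counts) than in every het library (4126 to 7485), and its KO mean was 23.8% of the het mean. The 12 germ cell markers examined, Ddx4 and Dazl among them, were detected in every library. Limma called 0 of them, and 0 had an unadjusted p under 0.05, with summed values of 135974 to 207100 in het and 137257 to 210124 in KO. Markers of testis somatic cells were also present. Over 20 of them, 14 had a negative log2 difference, 0 were called and 3, all Sertoli cell genes, had an unadjusted limma p under 0.05. They summed to 28313, 21994 and 63666 in het against 15891, 19604 and 22127 in KO. Het replicate 3 stood apart most through the Leydig cell markers, whose sum was 24921 there and 509.6 to 1079 in the other libraries. Its Sertoli cell sum was also the highest, at 35508, against 24042 and 17255 in het and 12404 to 17666 in KO. Its germ cell sum, 135974, was the lowest. All 6 Sertoli and all 5 Leydig cell markers had a negative log2 difference, while every other somatic list held positive ones. The part of these cells in the differences below was not tested. In bulk libraries more cells that make an RNA and more RNA per cell cannot be told apart.

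Values are normalized counts, that is reads divided by a size factor of each library, and are given in the order of replicates 1, 2 and 3. Within the KO group the 6 genes spanned a wide range of levels. Per kilobase of exon, the KO mean was 2128 ± 341 normalized counts for Gm12589 (SD, n = 3), 1509 ± 273 for Gm27216 and 1154 ± 182 for Gm15389. The KO libraries of these 3 genes did not overlap in level, although the lowest of Gm27216 (1302) and the highest of Gm15389 (1290) were close. The other 3 genes were about an order of magnitude lower, at 123 ± 27.6 for AC138768.1, 68.7 ± 38.0 for AC141429.2 and 49.1 ± 13.7 for Gm20110. The KO libraries of AC141429.2 overlapped those of both AC138768.1 and Gm20110. Placed by their KO means per kilobase among the 2116 tested lincRNAs, Gm12589, Gm27216 and Gm15389 stood above 99.8%, 99.7% and 99.5% of them, AC138768.1 above 90.3%, AC141429.2 above 80.6% and Gm20110 above 71.6%.

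In het the genes fell into 3 that were expressed and 3 that were nearly silent. Gm12589, Gm27216 and Gm15389 had het means of 171, 158 and 77.7 normalized counts per kilobase, already above 94.7%, 93.9% and 85.8% of the tested lincRNAs. The ranges of Gm12589 and Gm27216 overlapped in het. AC138768.1 and Gm20110 had 2 and 3 reads in all, each in het replicate 1 alone, and AC141429.2 had none. All 6 genes passed the mean of 10 required for a test, and these 3 passed it through the KO libraries alone. Over all tested genes, limma called 0.431% higher and 0.0423% lower in KO. In 7.17% of them every KO library lay above every het library and in 5.57% below. In each of the 6 genes every KO library lay above every het library, which is what they were chosen for.

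**Figure D1:**
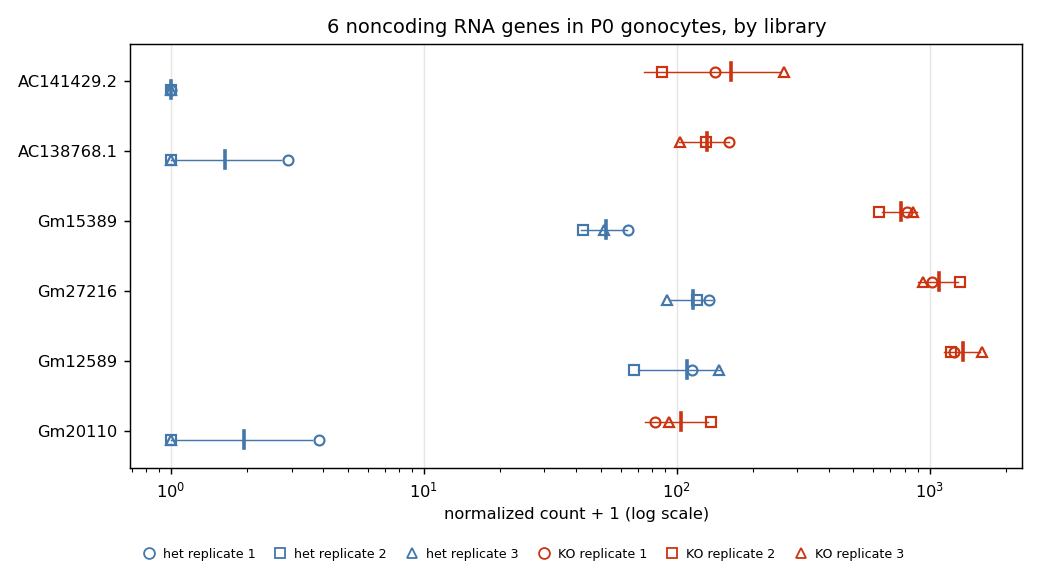
Normalized count plus 1 (log axis) of the 6 noncoding RNA genes in each of the 3 het (blue) and 3 KO (red) P0 libraries, with vertical marks for means and horizontal lines for ± 1 SD, cut at the left edge of the data where they would pass 0. The 2 colours do not overlap for any gene, and AC141429.2 sits at 0 counts in all het libraries.

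Gm15389 (ENSMUSG00000086161) is a lincRNA with 3 exons on the plus strand of chromosome 1, from 107687008 to 107693514 (GRCm38). It had 62.9, 41.5 and 50.7 normalized counts in het against 815, 631 and 859 in KO. The lowest KO library was 10.03 times the highest het library. Its mean went from 51.7 ± 10.7 to 769 ± 121 (SD, n = 3), which is 14.9-fold and a log2 difference of 3.87 on the log2(value + 1) scale. Of the 6 genes it has the largest share of exon bases in listed TE copies, 318 of 666 bases or 47.7%.

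The 300 bases around the start of Gm15389 and 318 of the 321 bases of its exon 1 lie in a pair of abutting TE copies on the same strand. The first, chr1:107686732-107687147, covers the annotated start and its 416 bases include the whole promoter window in the RefSeq promoter table (build GRCm38.p6, chr1:107686750-107687049, plus strand). That window is shown because the gene starts within it, with matches to CCAAT, the core of the CCAAT box, in capitals:

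Gm15389 promoter: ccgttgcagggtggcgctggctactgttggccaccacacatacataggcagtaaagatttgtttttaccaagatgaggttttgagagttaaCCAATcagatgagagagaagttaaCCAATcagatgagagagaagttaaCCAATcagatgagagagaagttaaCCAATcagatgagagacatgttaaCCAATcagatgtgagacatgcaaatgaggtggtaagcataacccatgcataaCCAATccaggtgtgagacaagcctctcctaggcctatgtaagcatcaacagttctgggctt

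It holds 6 matches, all on the strand shown, and the first 5 lie 24 bases apart within a repeated unit. Of the 32851 promoter windows in the table, 37.4% have CCAAT on either strand, but 26 windows (0.0791%) have 6 or more. Other motifs searched on both strands were not in this window. These were the TATA box (TATAAA, present in 13.6% of windows), the core of the YY1 motif (CCATCTT, in 6.34%), the GC box (GGGCGG, in 35.7%) and the E-box (CACGTG, in 7.15%). A match is a string of letters and not a measured binding site.

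The second copy, chr1:107687148-107687325 on the plus strand, is 178 bases long and lies wholly in exon 1. It is shown because it had the highest mean of all copies at the 6 genes, and its capitals mark 18 bases that AC141429.2 shares:

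Gm15389 exon 1, second copy: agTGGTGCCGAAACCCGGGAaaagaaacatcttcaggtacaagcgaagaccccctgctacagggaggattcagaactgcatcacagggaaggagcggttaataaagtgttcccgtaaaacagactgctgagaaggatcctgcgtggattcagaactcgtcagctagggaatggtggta

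The capitals are the letters of a retroviral primer binding site of the phenylalanine tRNA type, the stretch just after the LTR where reverse transcription begins. This second copy had 28.5, 15.7 and 11.5 normalized counts in het and 278, 185 and 278 in KO, so that its mean went from 18.6 ± 8.84 to 247 ± 53.6 (SD, n = 3). The first copy, over the start, was lower in every library, with 8.44, 7.85 and 9.58 in het and 48.6, 35.6 and 51.3 in KO. In both copies the groups did not overlap. Limma called both higher, the first not without KO replicate 1 or KO replicate 3. The het mean of the first was 8.62, under 10, so it was tested because of its KO values. Over all tested copies 15.6% were called higher, and in 22.8% every KO library lay above every het library. Together the copies touching its exons held 43.8 reads for every 100 reads counted in Gm15389 in KO, a figure that includes reads of the first copy outside the exon. Further into intron 1, copies of 753 and 168 bases on the same strand had KO means of 8.74 ± 4.20 and 2.07 ± 1.55 and het means of 0 and 0.958 ± 1.66 (SD, n = 3).

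The stretch of exon 1 is repeated in other annotated genes. Among GENCODE M21 transcripts, 14 other genes carried a match of at least 80% identity over at least 80% of its 321 bases, 12 of them were in the gene table and 9 were tested. In 6 of these 9 the match ran in the direction of transcription, as in Gm15389, with log2 differences from 0.85 to 5.07. Of these 6, Gm27224, Gm47872 and Gm42923 had a het mean under 10 and were tested because of their KO values, which favours a positive difference in them. In the other 3 of the 9 the match ran antisense, and their differences were between -0.26 and 0.23. The median over all tested genes was -0.02. The difference between the sense and antisense genes was not tested.

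Limma called 2 of the 9 higher, both lincRNAs with the match in sense, where 0.431% of all genes were called. Gm41318 had 26.7, 19.3 and 46.8 normalized counts in het and 290.9, 322 and 209 in KO. Gm27224, which passed the filter through KO alone, had 0, 1.93 and 1.95 in het and 97.0, 63.0 and 50.9 in KO. Neither gene overlapped between the groups. The others with a sense match were Gm47872 (log2 difference 2.52, SE 0.64), Olfr1372-ps1 (1.73, SE 0.48), Gm42923 (3.41, SE 1.32) and Gm42653 (0.85, SE 0.69). The identities were 86.2% to 91.3% in sense and 86.3% to 89.6% in antisense. How reads that match several places were counted is not given in the sources used here, so reads of one of these genes may have been counted in another, and the 9 genes are not independent of Gm15389.

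**Figure D2:**
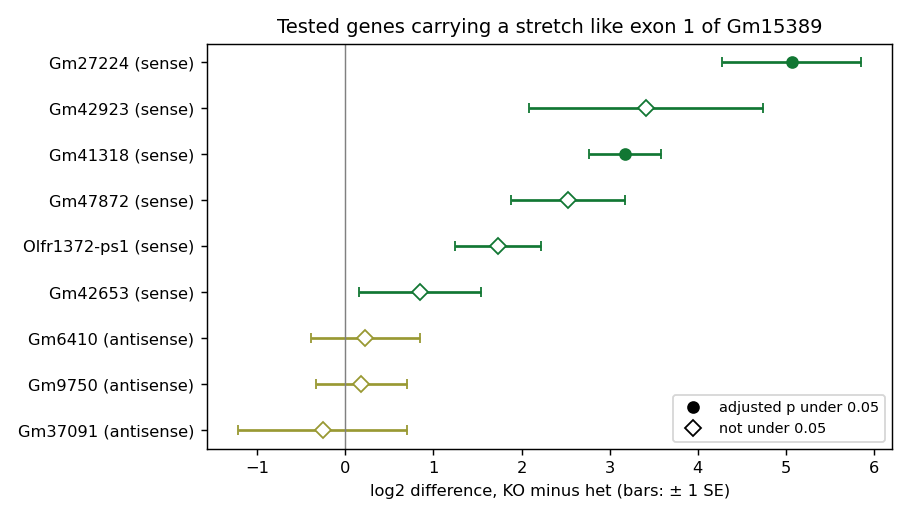
Log2 difference (KO minus het, ± 1 SE from the limma fit over all genes) for the 9 tested genes whose transcripts hold a stretch like exon 1 of Gm15389, in the direction of transcription (green) or antisense (olive). The 6 sense genes lie between 0.85 and 5.07 and the 3 antisense genes between -0.26 and 0.23. Gm27224, Gm47872 and Gm42923, all sense, were tested only because of their KO values.

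AC141429.2 (ENSMUSG00000117490) is a lincRNA of 8 exon blocks on the plus strand of chromosome 18, from 8180579 to 8192719. Its het libraries held no read, and its KO replicates 1 to 3 had 141, 86.8 and 264 normalized counts (164 ± 90.6; SD, n = 3). It varied most among the 6 genes within KO, with a coefficient of variation of 55.4% against 15.7% to 27.9% for the other 5. Taking 3 reads per library as the floor, KO was at least 56.5-fold above het. That bound covers counting error only.

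The transcript of AC141429.2 is related to that of Gm15389, from another chromosome. Bases 142 to 383 of its long transcript aligned over 242 positions with bases 75 to 314 of Gm15389 at 90.1% identity. Searched against the transcripts of 55450 genes, the 18 capital bases above were found in the direction of transcription in these 2 genes and in 10 others. Of those 10, 5 were tested, 4 had a positive difference and 2 had an unadjusted limma p under 0.05, where 12588 of all 26005 tested genes had a positive difference. Limma called 1 of the 5 higher, beside 0.431% of all tested genes. That gene was the pseudogene Ifi203-ps, with 90.6, 95.6 and 58.5 normalized counts in het against 722, 713 and 340.0 in KO. The same bases were antisense in 9 genes, of which 7 were tested. All 7 had a negative difference, with a median of -0.22, and 0 were called, 0 of them with an unadjusted p under 0.05. No other pair among the 6 genes aligned.

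The first 692 bases of the long transcript, its exons 1 and 2, were 93.1% identical to Gm15758, and 5 other genes carried this stretch under the rule used above. Only Ppp2r5a was tested, which encodes a regulatory subunit of protein phosphatase 2A and carries the stretch antisense. It had 1263, 1456 and 1703 normalized counts in het and 1910, 2911 and 2505 in KO, and was not called (log2 difference 0.72, SE 0.24).

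In AC141429.2, 297 of 2382 exon bases (12.5%) lie in listed TE copies, and its annotated start does not. A copy with fewer than 10 reads would not be listed, so this does not show a start free of TE sequence. In the transcript search its long transcript matched 210 other genes, where Gm15389 matched 116 and Gm20110 matched 122. The copy chr18:8183030-8183490, on the same strand, shares 224 bases with its exons. It had 0, 0 and 0.958 normalized counts in het and 15.3, 20.1 and 21.4 in KO, and its mean was under 10 and untested. It was named after its values were seen. The copy chr18:8188086-8189013, on the opposite strand, shares 73 bases with an exon and had no read in het and 27.7, 6.19 and 29.9 normalized counts in KO. It was at least 6.78-fold higher and was called, having passed the filter through KO alone. The call was lost without het replicate 1 or het replicate 2, with quantile normalization or with the replicate number as a block. Without KO replicate 1 or KO replicate 3 its mean fell under 10 and it was not tested. Reads of this opposite-strand copy and of the exon cannot be told apart if strand was not used in counting, which is not stated.

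Downstream of AC141429.2, the other 3 tested copies overlapped between the groups and were not called. A copy of 6259 bases lying 17073 bases away had 13.7, 6.73 and 30.7 normalized counts in het and 36.2, 26.3 and 15.4 in KO. Copies 43115 and 46224 bases away had log2 differences of -0.77 and 1.46 (SE 0.99 and 1.1). At this locus 1 of the 4 tested copies was called, beside 15.6% of all tested copies, and the called one had no read in het.

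Gm20110 (ENSMUSG00000111962) is a lincRNA with 3 exons that spans 48964 bases on the plus strand of chromosome 10, from 99609171 to 99658134. It had 2.86, 0 and 0 normalized counts in het against 81.1, 135 and 92.1 in KO. The KO mean was 103 ± 28.7 (SD, n = 3), and its ratio to the 3 reads of het was 108, with a 95% counting interval of 36.0 to 517. No library of het came near the KO group.

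Its start lies in a TE copy on the opposite strand, chr10:99608762-99609227, which includes its whole promoter window (RefSeq table, GRCm38.p6, chr10:99608921-99609220, plus strand). The window is shown because, unlike the one of Gm15389, it lies antisense to its copy. Capitals mark CCATCTT, the core of the motif of YY1, a zinc finger factor, and the reverse complement of CCAAT:

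Gm20110 promoter: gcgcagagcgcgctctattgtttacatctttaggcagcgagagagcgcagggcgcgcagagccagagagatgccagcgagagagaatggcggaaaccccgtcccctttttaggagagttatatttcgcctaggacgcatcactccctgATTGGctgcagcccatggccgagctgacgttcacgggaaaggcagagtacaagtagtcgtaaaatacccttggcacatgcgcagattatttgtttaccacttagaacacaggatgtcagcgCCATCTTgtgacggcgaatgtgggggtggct

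At least 80% identity over at least 80% of the window was found for 4 other promoters in the table, those of AA388235, Gm32026, Gm33671 and LOC115487747, and for 1 other, that of Gm35123, with the window of Gm15389. None of these names was matched in the gene table. The copy over the start of Gm20110 had 4.22, 4.49 and 2.88 normalized counts in het and 15.3, 17.0 and 34.2 in KO. Its groups did not overlap, and it was not called (log2 difference 2.18, SE 0.73).

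Of the 26 copies listed at Gm20110, 8 were tested, the most of any of the 6 loci. Limma called 4 of them higher, beside 15.6% of all tested copies, and in all 8 every KO library lay above every het library, beside 22.8%. The het mean was under 10 in 7 of the 8 and in 3 of the 4, so these were tested because of their KO values. The one with the most reads, chr10:99661993-99668283, is 6291 bases long and lies 3859 bases beyond the end of the gene on the opposite strand. It had 4.22, 6.73 and 23.0 normalized counts in het and 120.2, 177 and 122 in KO (139.9 ± 32.4; SD, n = 3), and it kept its call under every alternative that gave it a value. A copy of 379 bases, 15112 bases beyond the gene had 2.11, 5.61 and 1.92 in het and 19.1, 37.9 and 60.7 in KO, and was not called without KO replicate 2 or KO replicate 3. It lies within the lincRNA Gm35101. Another, 31181 bases away, had 6.33, 2.24 and 11.5 in het and 19.1, 114.6 and 22.2 in KO, with its high mean carried by KO replicate 2, and was not called.

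Inside Gm20110, copy chr10:99649944-99650196 on the same strand holds all 125 bases of exon 2. It had no read in het and 9.54, 14.7 and 13.7 normalized counts in KO, at least 4.03-fold higher, with a mean too low for a test. It was named after its values were seen. The copies touching exons of Gm20110 held 40.1 reads for every 100 reads of the gene in KO, though only 182 of its 2095 exon bases (8.69%) lie in listed copies, since their reads outside the exons are included. On the opposite strand, the pseudogene Gm18409 lies within the gene. It had 5.72, 16.4 and 6.83 normalized counts in het and 3.96, 4.13 and 1.96 in KO. Every KO library lay below every het library, as in 5.57% of all tested genes. The mean of Gm18409 was under 10, so it was not tested, and it was named outside the rule for neighbours.

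Gm12589 (ENSMUSG00000085126) is a lincRNA with 3 exons on the plus strand of chromosome 11, from 121803107 to 121810319. It had 114, 66.6 and 146 normalized counts in het against 1248, 1217 and 1609 in KO. The mean went from 109 ± 40.1 to 1358 ± 218 (SD, n = 3), 12.4-fold, and the lowest KO library was 8.32 times the highest het library. No other gene matched its transcript in the search.

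A TE copy crosses the end of Gm12589 rather than its start. The copy chr11:121810287-121810367, on the same strand, is 81 bases long and holds the last 33 bases of exon 3, shown here with the polyadenylation signal hexamer AATAAA in capitals:

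Gm12589 end of exon 3: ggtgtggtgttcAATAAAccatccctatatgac

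This copy had 10.5, 8.97 and 12.5 normalized counts in het against 93.5, 84.4 and 117 in KO. The mean went from 10.7 ± 1.75 to 98.3 ± 16.9 (SD, n = 3), 9.23-fold, and the groups did not overlap. In KO it held 8.43 reads for every 100 reads of the gene.

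Far upstream, chr11:121779709-121779976 on the same strand had the second highest KO mean of all copies at the 6 genes. It had 8.44, 8.97 and 21.1 normalized counts in het and 195.5, 132 and 224 in KO, a change in mean from 12.8 ± 7.15 to 184 ± 46.9 (SD, n = 3). It lies 23131 bases before the GENCODE start, but the RefSeq table gives Gm12589 starts at 121777749, 121798802 and 121803021, and the copy is between the first and the second. Both this copy and the one at the end of exon 3 were called, and kept the call under every alternative that gave them a value.

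An intronic copy of 242 bases, 3264 bases after the start of Gm12589 had 6.33, 3.37 and 0 normalized counts in het and 12.4, 11.6 and 30.8 in KO, and was not called. A copy of 444 bases, 36717 bases downstream was the only one at the 6 genes with every KO library below every het library, at 32.7, 20.2 and 17.3 in het and 1.91, 9.29 and 11.1 in KO. It too was not called (log2 difference -1.72, SE 0.74).

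Gm27216 (ENSMUSG00000098747) is a lincRNA with 6 exon blocks on the minus strand of chromosome 9, from 83240481 to 83254540. It had 133.5, 119.8 and 90.7 normalized counts in het against 1019, 1316 and 943 in KO. The mean went from 115 ± 21.9 to 1093 ± 197 (SD, n = 3), 9.53-fold, the smallest ratio of the 6, and the groups were 7.06-fold apart at their nearest libraries. It is the one gene of the 6 with none of its 724 exon bases in a listed copy, and its promoter window is free of them as well. That window had 2 matches to CCAAT, a number that 11.7% of all windows reach.

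Its introns do hold copies that were read. The copy chr9:83250327-83250611, 285 bases on the same strand and 3929 bases after the start, had 6.33, 6.73 and 7.67 normalized counts in het and 76.3, 79.7 and 80.4 in KO. Its mean went from 6.91 ± 0.687 to 78.8 ± 2.2 (SD, n = 3), the tightest KO group of the called copies, and its call held under every alternative that gave it a value. A second intronic copy, chr9:83248340-83248669, had 2.11, 11.2 and 0 in het and 25.8, 26.3 and 15.4 in KO. A copy of 877 bases, 33519 bases downstream had 0, 4.49 and 0 in het and 26.7, 27.1 and 7.70 in KO. In these last copies the groups did not overlap, and neither was called. The het mean was under 10 in all 3 tested copies of this locus, so they were tested because of their KO values. Limma called 1 of the 3, beside 15.6% of all tested copies. In 22.8% of all tested copies every KO library lay above every het library.

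AC138768.1 (ENSMUSG00000117482) is a processed pseudogene on the minus strand of chromosome 18, from 4293099 to 4294482, in 2 exon blocks. It had 1.91, 0 and 0 normalized counts in het against 160.3, 129 and 102 in KO. The KO mean was 130.4 ± 29.2 (SD, n = 3), and the ratio to the 2 reads of het was 205, with a 95% counting interval of 55.7 to 1680. All KO libraries were far above het replicate 1, by 53.4-fold at the least.

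All 1058 bases of AC138768.1 aligned with Chst10, which encodes a carbohydrate sulfotransferase, at 88.5% identity. Reads from Chst10 could be counted in the pseudogene or the reverse. Chst10 had 1165, 1647 and 1416 normalized counts in het and 1072, 1386 and 1074 in KO. Its values overlapped between the groups and it was not called (log2 difference -0.26, SE 0.23).

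The gap between the exon blocks of the pseudogene is filled by a TE copy on the opposite strand, chr18:4293656-4293981, which shares 1 base with an exon. It had 1.05, 0 and 0 normalized counts in het and 18.1, 13.9 and 15.4 in KO, was too low for a test and was named after its values were seen. In KO it held 14.1 reads for every 100 of the pseudogene. All tested copies of this locus lie downstream. The tested copy nearest to the start, 11494 bases beyond the gene on the opposite strand, had 0, 6.73 and 0 in het and 17.2, 3.87 and 71.0 in KO. A second tested copy that overlaps it by a few bases had 1.05, 0 and 8.63 in het and 30.5, 7.74 and 88.1 in KO. Both overlapped between the groups, KO replicate 2 being low in each, and neither was called.

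Farther out, chr18:4271933-4275281 on the same strand had 1.05, 0 and 2.88 normalized counts in het and 27.7, 107 and 34.2 in KO, and chr18:4244194-4245041, also on the same strand, had 4.22, 4.49 and 0 in het and 50.6, 32.5 and 32.5 in KO. Both were called higher, and their groups did not overlap. The first lost its call without KO replicate 2. The second lost it without any one of the KO replicates and with a pseudocount of 0.1. All 4 tested copies of this locus had a het mean under 10 and were tested because of their KO values. Limma called 2 of the 4, beside 15.6% of all tested copies. In 22.8% of all tested copies every KO library lay above every het library.

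Over all 6 loci, 25 of the 102 copies had a mean of at least 10 and were tested. Limma called 12 of them higher and 0 lower, beside 15.6% higher and 0.735% lower over all 49781 tested copies. At an unadjusted limma p under 0.05, 21 were higher and 1 lower, and edgeR and DESeq2 called 0 lower. The share of all tested copies at that unadjusted p is not given here, so the 21 and the 1 have no background beside them. The number called higher fell to 7 of 23 tested without KO replicate 1 and to 6 of 19 tested without KO replicate 3. The het mean was under 10 in 17 of the 25 copies and in 8 of the 12, so these were tested because of their KO values and a call in them says little. In 19 of the 25 every KO library lay above every het library, where 22.8% of all tested copies did so, and in 1 every KO library lay below, against 7.58%. Since the loci were chosen for the genes' difference, nothing is read from these counts.

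The median log2 difference of the 25 tested copies was 3.09, against 0.03 over all tested copies. By place, 8 copies overlap an exon, 10 lie in introns, 34 upstream and 50 downstream, of which 4, 2, 2 and 4 were called among 5, 4, 4 and 12 tested. By strand, 8 of 14 tested copies on the strand of the gene were called and 4 of 11 on the opposite strand. Over all tested copies 15.6% were called higher. The het mean was under 10 in 3, 4, 3 and 7 of the tested copies by place and in 9 and 8 by strand. Those copies were tested because of their KO values. Copies over exons can also count the same reads as the genes, which were chosen for their difference, so nothing is read from these splits. The 77 untested copies summed to 172, 166 and 181 normalized counts in het and 384, 510.1 and 368 in KO. That is a sum, and single copies among them went either way. Some of these copies were listed through KO reads alone, which favours a higher sum in KO.

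**Figure D3:**
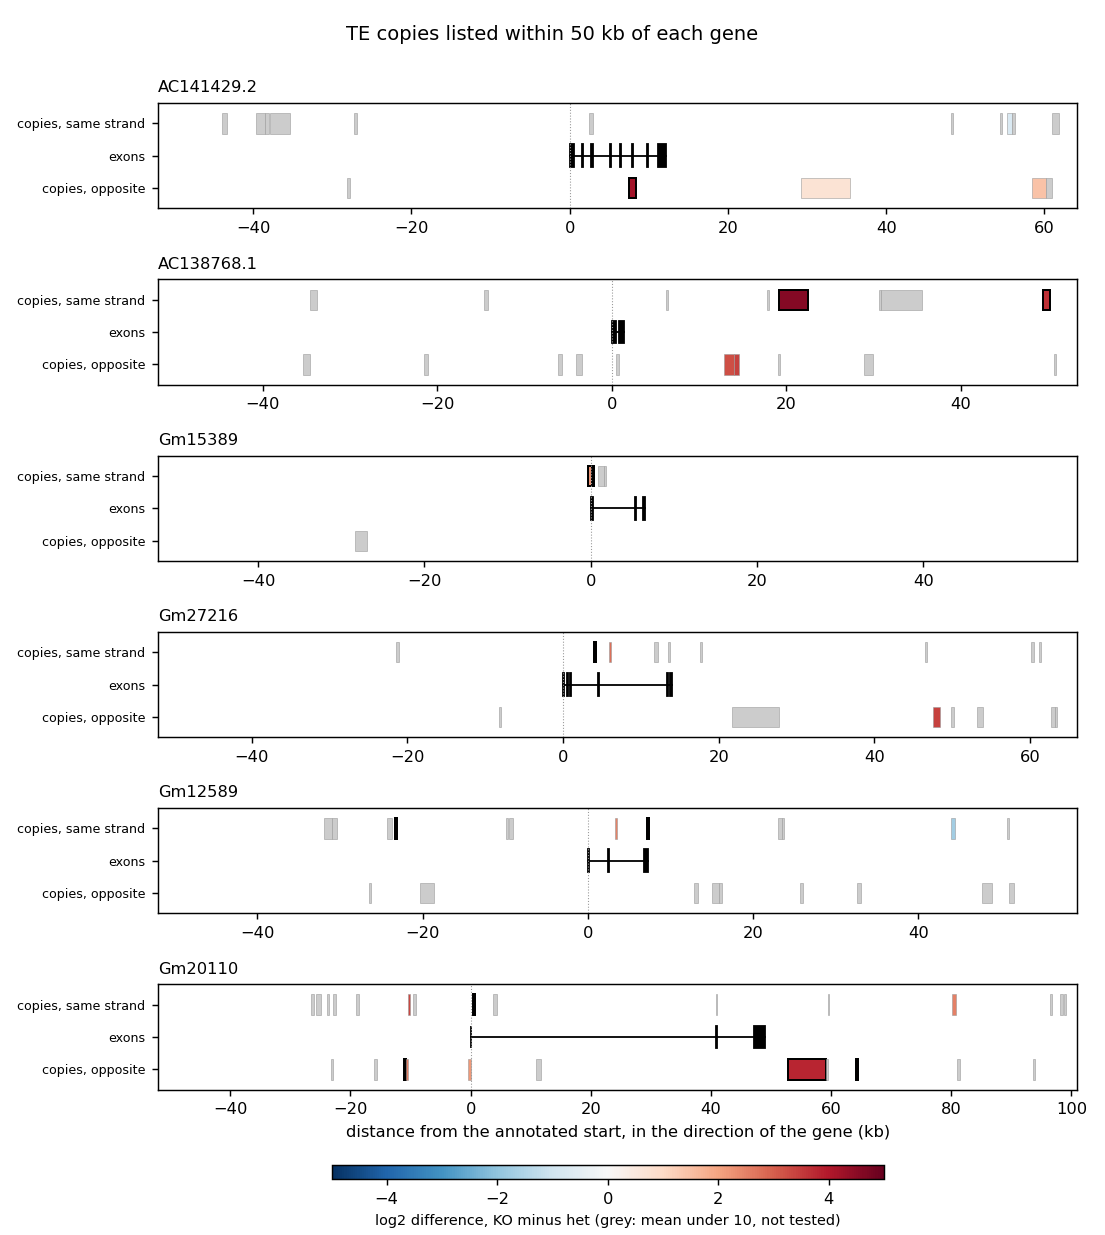
Map of the 102 TE copies at the 6 genes, with exons as black blocks, the distance from the annotated start in the direction of the gene on the horizontal axis (kb), and copies on the same or the opposite strand above and below the gene. Colour is the log2 difference, KO minus het, for the 25 tested copies, with untested ones in grey. The 12 called copies have a black outline, which hides the colour of the narrowest, and 2 of them touch exon 1 of Gm15389 and 1 the end of Gm12589.

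**Figure D4:**
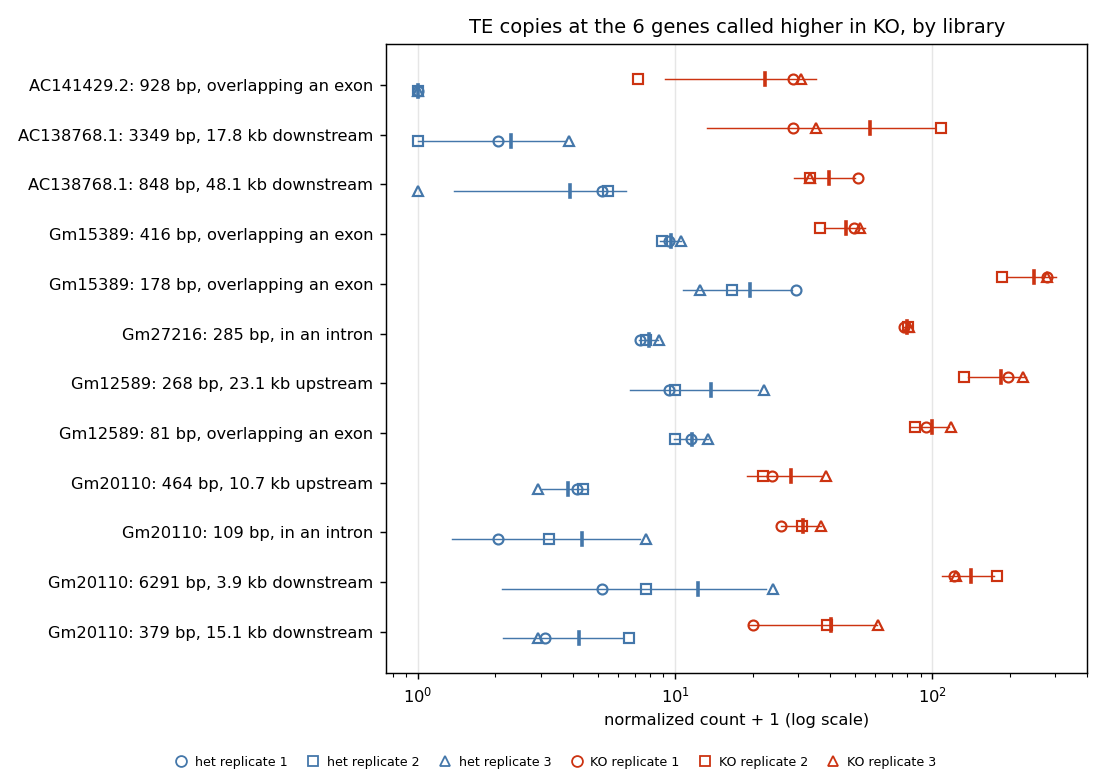
Normalized count plus 1 (log axis) in each library for the 12 TE copies called higher in KO, named by gene, length and place, with means (vertical marks) and ± 1 SD (lines, cut where they would pass 0). In every one of them the 3 KO libraries lie above the 3 het libraries, and the 285-base intronic copy of Gm27216 has the least spread among the KO libraries.

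The copies nearest to the edge of the window had few reads on either side of it. Just inside 50 kb, a copy 49820 bases from Gm20110 had no read in het and 0.954, 14.7 and 3.42 normalized counts in KO, and one 49315 bases from AC138768.1 had 2.11, 1.12 and 0 in het and 6.68, 3.10 and 0.855 in KO. Just outside, a copy 50441 bases from Gm12589 had 2.11, 2.24 and 0.958 in het and 0, 3.87 and 12.8 in KO, and one 51307 bases from Gm27216 had no read in het and 9.54, 5.42 and 0 in KO. All 4 were too low for a test.

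The annotated start of 2 of the 6 genes, Gm15389 and Gm20110, lies in a listed copy. For comparison, this held for 13.0% of the 2116 tested lincRNAs and 3.08% of the 25967 tested genes with a position. The RefSeq table has promoter windows for 4 of the 6 genes, Gm12589 with 3 of them, and none for AC141429.2 and AC138768.1. Of these 6 windows, 2 lie wholly in listed copies, as did 1.19% of all 32851 windows. With so few genes, and with copies that could be listed through KO reads alone, these shares are a description.

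GENCODE lists 8 genes that overlap one of the 6 or lie within 50 kb, of which 7 were in the table and 5 were tested. Limma called 0 of the 5, 0 had an unadjusted p under 0.05, and edgeR and DESeq2 also called 0. Map3k8, which encodes a kinase of the MAP kinase cascade 36845 bases from AC138768.1, had 489, 410 and 236 normalized counts in het and 431, 231 and 371 in KO. Ptchd3, a gene of the patched domain family 19928 bases from Gm12589, had 60.1, 44.4 and 5.85 in het and 44.5, 27.9 and 23.5 in KO. In both the groups overlapped, and the sign of both small differences changed with the settings.

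The remaining tested neighbours were noncoding. The lincRNA Gm35101, 11380 bases from Gm20110, had 5.72, 7.73 and 31.2 normalized counts in het and 14.8, 55.8 and 51.9 in KO, a log2 difference of 1.55 (SE 0.79) with overlapping groups. The pseudogenes AC141429.1 and Gm12586 had log2 differences of 1.00 (SE 0.76) and 1.01 (SE 0.86), likewise with overlap. A p above the threshold does not show that these genes were alike in both groups.

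The 6 genes can be set beside their classes. Of the 2111 other tested lincRNAs, 18 were called higher (0.853%) and 1 lower, with a median log2 difference of 0.08. Of 2068 other tested processed pseudogenes, 9 were higher (0.435%) and 4 lower, with a median of -0.02. Over all tested genes 0.431% were called higher, and the median was -0.02.

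The tested genes whose levels over the 6 libraries most resembled the mean centred profile of the 6 genes were 4930558C23Rik (Pearson r = 0.997), Cts3 (0.997), Tmc2 (0.996), Gm47057 (0.995) and 4933433F19Rik (0.994). These correlations describe 6 libraries that all share the step between het and KO, and genes near any of the 6 were left out. Tmc2, which encodes a channel protein of hair cells, had 73.4, 35.7 and 55.6 normalized counts in het and 1252, 1870.2 and 1908 in KO. 4930558C23Rik had 40.0, 31.9 and 34.1 in het against 1357, 1568 and 1847 in KO. The lincRNA 4933433F19Rik had a smaller step, from 11.9 ± 1.11 to 57.3 ± 6.74 (SD, n = 3), with little spread inside each group.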

How the data were processed

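The values of both deposited tables are a signal, read counts that the authors divided by a size factor per library. Per the submitters' processing notes, bcl2fastq 2.20, cutadapt 1.18, HISAT2 2.1.0, featureCounts 1.5.2 and DESeq2 1.26.0 were used with mm10 (GRCm38), with no role given. Strand handling and multi-mapping are not given in the sources used here. RNA came from SMART-seq v4 libraries, per the labels' protocols.

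In each column every value was a whole multiple of a fixed step, from which whole reads were recovered. Because the TE table holds normalized values, limma replaced the edgeR test planned for counts. Genes and copies averaging 10 or more entered limma 3.58.1 (R 4.3.3, trend, two-sided) on log2(value + 1), with Benjamini-Hochberg adjustment over all features and a threshold of 0.05 for a call. Scripts were tested on simulated data. No 2 libraries agreed within counting noise (mean chi-square per gene at least 10.02). Genes come from GENCODE M21, promoters from RefSeq (GRCm38.p6), and similarity from BLAST 2.17.0. Copy positions were read as 1-based.

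The 6 genes and the lists were chosen with earlier results of these data known. Text names all 6 genes, their tested exonic copies, the tested copy nearest each start, up to 3 further copies by mean level, up to 4 tested neighbours, and the 5 genes with the most similar profile. Alternatives were edgeR 4.0.16 and DESeq2 1.42.0 on recovered reads, other pseudocounts, filters, scalings and windows, a replicate block, and leaving out each library. Intervals and the 3-read floor cover counting error only. TE family names were not used here.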

Additional observations from a re-analysis of the deposited data

How the results depend on the processing

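The number of copies at the 6 genes called higher was 12 of 25 tested, and both numbers changed with the settings. It moved to 19 of 102 without the filter and 4 of 4 with a mean of at least 50. With gene size factors it was 19 of 26, and within 10 kb 7 of 10. When 1 library was left out it ran from 6 of 19 to 16 of 27. Of the 12 copies, 5 kept the call under every alternative that gave a value. The copy chr18:8235834-8236450 changed sign without KO replicate 3 (0.30), Map3k8 without het replicate 1 (0.10) or KO replicate 2 (0.15), and Ptchd3 with edgeR (-0.20), DESeq2 (-0.20), without het replicate 3 (-0.73) or without KO replicate 1 (-0.0039). Leaving out 1 library at a time, their log2 differences ran from -1.43 to 0.30, from -0.42 to 0.15 and from -0.73 to 0.85. The log2 differences of AC141429.2, AC138768.1 and Gm20110 were 10.5, 8.88 and 8.34 with a pseudocount of 0.1 and 3.99, 3.71 and 3.35 with 10, since their het values are near 0. The 6 genes kept their direction throughout.

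Over all genes, 112 higher and 11 lower became 70 and 5 with a pseudocount of 0.1 and 400 and 65 with DESeq2. There were 177 higher with a pseudocount of 10 and 3 lower without trend. Leaving out 1 library gave 17 to 105 higher (17 without KO replicate 3) and 1 to 7 lower. The higher count moved by over 1.5 times without het replicate 1 or any one of the KO replicates, and the lower count whichever library was left out. Over all copies, 7745 higher of 49781 tested became 2377 of 6363 with a mean of at least 50. Without 1 library there were 3694 to 9000 higher (3694 without KO replicate 1, with over 1.5 times fewer without any one of the KO replicates). The 366 lower became 204 and 607 with pseudocounts of 0.1 and 10, 617 without the filter, 133 with a mean of at least 50, 815 with DESeq2, 196 with gene size factors, and 95 to 377 without 1 library. Quantile normalization gave 5780 higher and 1034 lower and moved the median of all copies by -0.44, and gene size factors moved it by 0.35. None of the 25 tested copies at the 6 genes changed direction under either. The cause of these changes was not tested.

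With the replicate number as a block, 64 genes were higher and 5 lower, 243 copies were lower, and the count at the 6 genes was 12. The copy chr18:8188086-8189013 lost its call. The labels link same-numbered libraries by the number alone. Their deviations correlated over genes at 0.138, -0.163 and -0.0438, and not every library correlated best with its own number. The highest value over genes was 0.206, between het replicate 3 and KO replicate 2, a pair at 0.307 over copies. These values cannot show whether any libraries shared a batch. Of the 102 copies, 77 had too few reads for a test.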
